A study of Mus musculus with 3 samples.

Results

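Clear cells are the proton-secreting cells of the epididymal epithelium, and the 813 clear cells described here are those found in the caput, the head of the mouse epididymis. A caput cell was chosen by its counts of unique molecular identifiers (UMIs). It had to express at least 200 genes and to hold at least 3 of the rule genes Foxi1, Atp6v1b1, Atp6v1g3, Atp6v0d2 and Atp6v0a4. These 5 genes together had to reach 10 UMIs per 10000 of the cell, and Krt5, Ptprc and Pecam1 together could not exceed 2 UMIs. A further gene of the rule, Slc4a9, was not used here. The members were 813 of 4939 caput cells (16.5%, exact Clopper-Pearson 95% interval 15.4 to 17.5, counting error only) among 14555 cells of the whole series. The study profiled single cells of the caput, corpus and cauda of wild-type C57BL/6 mice aged 56 days, which received no treatment. Each region was dissociated with tissue digestion solution, strained, cleared of red blood cells and captured on a Singleron GEXSCOPE chip as 1 library. The number of animals behind a library is not given in the labels, so every value below describes 1 library and no test across animals could be made. With the same rule 408 of 4831 corpus cells (8.45%, 7.68 to 9.27) and 111 of 4785 cauda cells (2.32%, 1.91 to 2.79) were clear cells.

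Clear cells of the epididymis carry the vacuolar proton pump (V-ATPase) in their apical membrane and acidify the fluid in the lumen, which keeps sperm quiescent while they mature and are stored. The pump has a cytosolic V1 sector that splits ATP and a membrane V0 sector that carries the proton, and several subunits exist as a ubiquitous form and a form found in acid-secreting cells such as the intercalated cells of the kidney. Foxi1, a forkhead transcription factor, is required in mouse for pump subunits and anion exchangers in these cells. Clear cells also take up material from the lumen and recycle pump-bearing vesicles between the apical membrane and the cytoplasm.

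The promoters of 4 genes on which the results turn are shown because forkhead factors bind the core letters TGTTTA or TGTTTG. Each runs from 250 bases before to 50 bases after the RefSeq start site on GRCm38.p6, is read in the direction of the gene, and has any match to these letters or to their reverse complements TAAACA and CAAACA in capitals.
Foxi1, chr11:34208040-34208339, minus strand: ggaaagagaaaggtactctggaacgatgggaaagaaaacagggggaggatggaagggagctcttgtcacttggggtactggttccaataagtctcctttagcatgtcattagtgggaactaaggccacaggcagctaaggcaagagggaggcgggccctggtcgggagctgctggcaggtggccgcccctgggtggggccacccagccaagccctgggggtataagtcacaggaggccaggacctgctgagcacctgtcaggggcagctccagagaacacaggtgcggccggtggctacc
Atp6v1b1, chr6:83742767-83743066, plus strand: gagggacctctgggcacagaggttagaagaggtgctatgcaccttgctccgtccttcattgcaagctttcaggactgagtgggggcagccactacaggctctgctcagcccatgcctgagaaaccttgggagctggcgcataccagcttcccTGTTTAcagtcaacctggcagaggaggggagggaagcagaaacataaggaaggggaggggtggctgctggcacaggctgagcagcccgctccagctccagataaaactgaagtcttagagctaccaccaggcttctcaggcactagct
Atp6v1g3, chr1:138273488-138273787, plus strand: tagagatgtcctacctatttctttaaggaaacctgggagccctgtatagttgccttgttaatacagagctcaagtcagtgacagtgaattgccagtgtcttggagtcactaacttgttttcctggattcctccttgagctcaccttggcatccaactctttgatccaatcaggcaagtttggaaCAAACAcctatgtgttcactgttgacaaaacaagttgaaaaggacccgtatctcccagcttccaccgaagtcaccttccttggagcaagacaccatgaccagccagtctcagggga
Clcn5, chrX:7319309-7319608, minus strand: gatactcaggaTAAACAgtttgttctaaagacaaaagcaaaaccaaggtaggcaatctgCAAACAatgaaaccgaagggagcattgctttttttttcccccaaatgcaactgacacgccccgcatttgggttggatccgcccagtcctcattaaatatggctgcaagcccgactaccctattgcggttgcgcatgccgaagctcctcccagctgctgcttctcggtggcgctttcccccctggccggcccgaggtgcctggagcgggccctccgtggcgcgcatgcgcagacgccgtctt
The Atp6v1b1 promoter held 1 match, 98 bases before the start, and the Atp6v1g3 promoter held 1 match, 66 bases before it. The Clcn5 promoter held 2 matches, 239 and 191 bases before the start, and the Foxi1 promoter held none. The promoters of Atp6v0a4, Atp6v1c2, Hepacam2, Dmrt2, Slc26a3, Kit, Tfcp2l1 and Edn3 held none of these letters in the same window. Of 12549 promoters of this length, 20.9% held a match on either strand, and no counted match in the 12 promoters searched overlapped another. Of the 142 genes higher in caput clear cells that had a promoter entry (of 181 such genes, described below), 20.4% held a match, a share close to that of all promoters.

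The caput library held 41500792 UMIs in 4961 cells (median 5077 in cells with at least 200 genes), the corpus library 21495211 in 4959 cells (median 2654) and the cauda library 18341476 in 4925 cells (median 2198). Between 14 and 21 cell barcodes were shared by each pair of libraries, and none of them belonged to clear cells. The caput clear cells had a median of 4373 UMIs (lowest 1435, highest 79416) and 1907 genes, against a median of 4563.5 UMIs in the other caput cells. More than 20% of the UMIs were mitochondrial in 46 caput clear cells (5.66%), against 42.6% of corpus and 30.6% of cauda clear cells.

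The rule genes reached 48.6 UMIs per 10000 in the median caput clear cell, with a lowest value of 10.01 and a highest of 146. All 5 were detected in 198 members, 4 in 359 and 3 in 256. Just inside the threshold lay cells at 10.01 and 10.06 UMIs per 10000, and just outside it cells at 9.999 and 9.98. Of the 1068 caput cells with at least 3 rule genes, 194 were under that level, and 120 caput cells with at least 10 UMIs per 10000 were left out because only 2 rule genes were detected. Stap1, which the rule did not use, stood at 1931 CPM (UMIs per 1000000 of the class sum) in those 120 cells and at 2348 CPM in members with 3 rule genes. Clcn5, also outside the rule, stood at 1044 CPM in those cells and at 1166 CPM in the same members. A further 61 cells that met the other conditions were left out for their UMIs of Krt5, Ptprc or Pecam1.

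Within the caput, members were set against 2820 other caput cells, which held at most 1 UMI of the rule genes, and against the 1029 principal and 431 basal cells among caput cells, named by markers. The 1306 caput cells in between belonged to no class. UMIs were summed over the cells of a class and given as CPM. A gene was counted as higher or lower where the ratio of the classes was at least 4, its exact conditional 95% interval excluded 2, and the higher class had at least 100 UMIs. Every gene of a member comes from the cells the rule selected, so these values are descriptions without a test, and the intervals cover counting error only. Folds also depend on the reference having at most 1 rule gene UMI: against all 4126 caput cells that are not members, a reference added after the data were seen, the ratio was 16.8 instead of 48.6 for Stap1, 15.9 instead of 43.8 for Clcn5, 14.7 instead of 24.3 for Atp6v1c2 and 4.81 instead of 5.72 for Atp6v1a.

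Hepacam2, a membrane protein also found in intercalated cells and ionocytes, was the 1 marker fixed for clear cells that the rule did not use, and served to check the label. It stood at 158 CPM in caput clear cells and 4.77 CPM in the other caput cells (33.0-fold, 26.6 to 41.5). A Hepacam2 UMI was seen in 54.5% of members, in 6.80% of caput endothelial cells (median 6570 UMIs per cell) and in 8.94% of caput macrophages (median 4226 UMIs per cell), which should lack it. After each cell was thinned to 2000 UMIs these shares were 29.9%, 1.62% and 3.66%. Foxi1 itself was seen in 93.2% of members, 9.71% of endothelial cells and 17.9% of macrophages. In both the endothelial and the macrophage class, the highest rule gene value lay above the level set for members. The Hepacam2 and Foxi1 shares of these classes may therefore include clear cells. How much RNA of clear cell genes was carried by cells of other types was not tested.

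The members also carried RNA of other cell types, above all of principal cells, which line most of the duct and secrete lipocalins, defensins and glutathione peroxidase 5. The 12 principal cell markers, all of them detected, summed to 64334 CPM in caput clear cells, 152360 CPM in principal cells, 38573 CPM in caput endothelial cells and 76250 CPM in caput macrophages. The lowest of the 12 stood at 9.12 CPM and the highest at 20350 CPM in caput clear cells. At least 300 principal marker UMIs per 10000 were held by 366 members (45.0%), a level also reached by 53.3% of macrophages and 31.7% of endothelial cells. The part of free RNA or of captured cell pairs in this was not tested, and no doublet caller was used here.

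**Figure D1:**
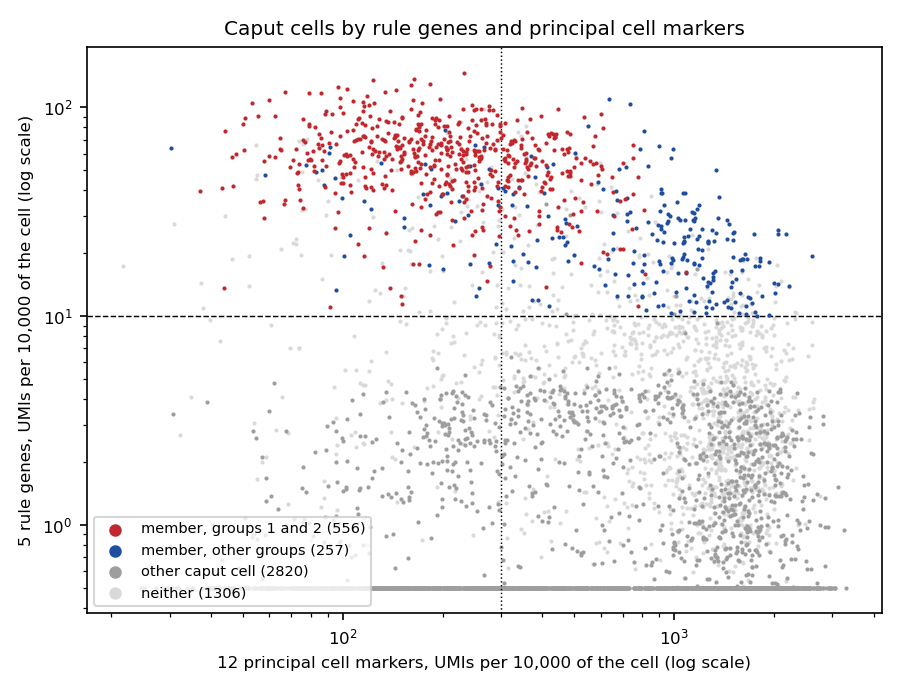
Caput cells by the 12 principal cell markers (x axis) and the 5 rule genes (y axis), both in UMIs per 10000 of the cell on log scales, with values under 5 and 0.5 drawn at those limits. Red and blue points are the 813 caput clear cells, dark grey points the 2820 other caput cells and light grey points the 1306 cells of no class, the dashed line is the level of 10 and the dotted line the level of 300; 366 members lie at or above the level of 300.

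Clustering of the members alone (Leiden, resolution 0.5) gave 7 groups, which are a description since they were formed from the same counts. Groups 1 and 2 held 316 and 240 cells and together 556 of the 813 members. Group 2 was led by genes such as Nav1, Svopl, Mcf2, Dmrt2 and Kcnma1, had the highest median of rule genes of the 7 groups (62.6 UMIs per 10000) and the lowest of principal markers (124). Group 1 was led by the haemoglobin genes Hbb-bt, Hba-a1, Hba-a2 and Hbb-bs and had medians of 54.1 rule gene and 297 principal marker UMIs per 10000. Genes of other nucleated cells led the remaining 5 groups. Group 0 (27 cells) was led by the stromal and muscle genes Col6a1, Myh11 and Acta2, and group 4 (20 cells) by the macrophage genes Ccl4, Cx3cr1 and C1qc. Group 3 (38 cells) was led by Defb39 and Rnase9, group 5 (94 cells) had Cst12 and Adam28 among its leading genes, and group 6 (78 cells) Defb18 and Defb47, which are secreted or surface products of principal cells.

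The cells of groups 3, 5 and 6 held more RNA, with medians of 10157, 9219.5 and 10948 UMIs against 3505 and 4041.5 in groups 1 and 2. The mean UMIs of rule genes per cell, which the membership rule sets in part, were 27.4, 25.3 and 26.0 in groups 3, 5 and 6, and 21.8 and 29.1 in groups 1 and 2. Over all 257 cells outside groups 1 and 2 the mean was 25.0 rule gene UMIs per cell, the same to 3 digits as in the 556 cells of groups 1 and 2. The principal markers of groups 3, 5 and 6 reached medians of 396, 1071 and 1304 UMIs per 10000. Values below are also given for groups 1 and 2 alone beside counts of genes that moved by more than 1.5 times and beside genes described here whose call was lost. This restriction was added after the data were seen.

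**Figure D2:**
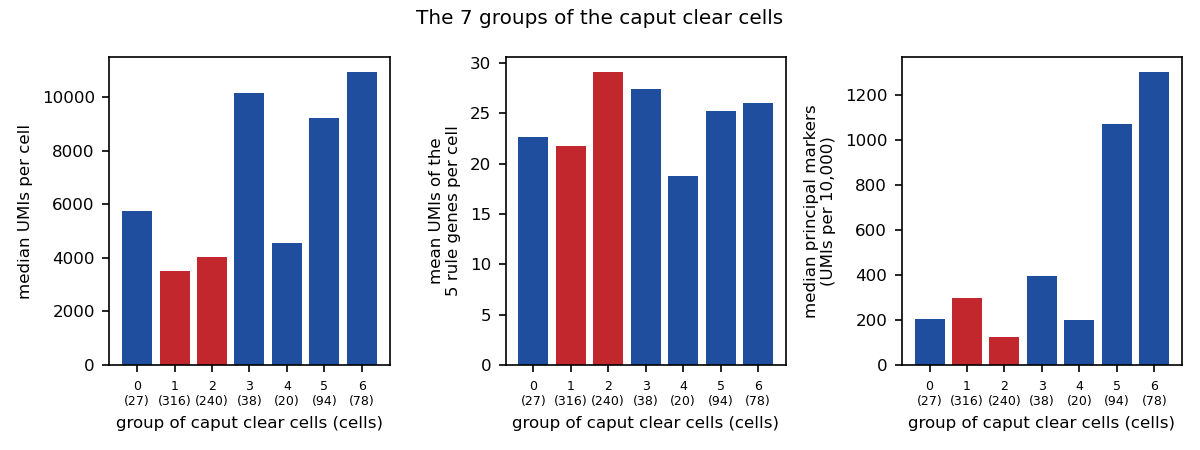
The 7 groups of the caput clear cells, with their number of cells under each bar: median UMIs per cell (left), mean UMIs of the 5 rule genes per cell (middle) and median principal markers in UMIs per 10000 (right). Groups 1 and 2 are red; groups 3, 5 and 6 have the highest bars at the left, and mean rule gene UMIs lie between 18.8 and 29.1 in all 7 groups.

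Over single members, after thinning to 2000 UMIs per cell, the gene with the highest ratio of variance to mean was Hbb-bs, at 139, followed by Hba-a1 at 98.6. The next in order were Hba-a2, Hbb-bt, mt-Rnr2 and Gpx5, the last at 43.3, and principal cell products Defb47, Spag11b, Lcn5, Defb20, Lcn9, Lcn8, Defb48 and Spink8 filled most of the other places among the 15 highest. The median ratio over 4831 genes was 1.07. The ratio was 2.85 for Stap1 and 2.30 for Clcn5, and 3.28 for Atp6v1g3 and 1.36 for Foxi1, whose spread the rule restricts. S100g, a vitamin D dependent calcium-binding protein, had a ratio of 3.73 and a UMI in 29.3% of members. Erythroid marker RNA summed to 9835 CPM in groups 1 and 2 and 2641 CPM in the other members, and its part in these values was not tested.

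Pump subunits include 4 of the rule genes, so their counts rest in part on the rule. Of 12 V1 genes with at least 100 UMIs in 1 class, 4 were higher (2 of them rule genes) and none lower in caput clear cells than in the other caput cells, with a median log2 ratio of 1.22 over the listed genes with at least 20 UMIs, against -0.02 over all genes. Across all genes 181 of 10163 (1.78%) were higher and 405 (3.99%) lower. In groups 1 and 2 these shares were 2.09% and 7.99%. They are the background for all counts of listed genes against the other caput cells. A count near them says nothing particular about a list. How many genes of a list had enough UMIs in groups 1 and 2 is not given here. Of 11 genes of the V0 sector and accessory proteins, 2 were higher, both rule genes (median 0.54), and none of 11 genes for assembly and regulation of the pump was higher or lower. Since 4 subunits chose the cells, their values are given only as a description. Atp6v1g3 (G subunit of V1) stood at 2605 CPM in caput clear cells and 26.7 CPM in the other caput cells, and Atp6v1b1 (B subunit, which binds ATP) at 133 and 1.75 CPM. Atp6v0a4 (a subunit, on the proton path) stood at 152 CPM in caput clear cells and 2.81 CPM in the other caput cells, and Atp6v0d2 (d subunit, which joins the sectors) at 451 and 18.4 CPM. In single members Atp6v1g3 had a median of 30.0 UMIs per 10000, a lowest value of 0 and a highest of 128.

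Outside the rule, Atp6v1c2, a form of the C subunit that links the V1 sector to the rest of the pump, stood at 140.5 CPM in caput clear cells and 5.78 CPM in the other caput cells (24.3-fold, 19.9 to 30.0). Atp6v1a, the catalytic A subunit, which has no alternative form, stood at 1460 CPM in caput clear cells and 255 CPM in the other caput cells (5.72-fold). Atp6v1e1 was 3.71-fold and Atp6v0b 3.15-fold higher by ratio and missed the size rule, which both passed in groups 1 and 2 (5.11-fold and 4.34-fold). The ubiquitous forms of the B, C, G, a and d subunits given next had ratios from 0.999 to 1.62. The ratios of caput clear cells to the other caput cells were 1.62 for Atp6v1b2, 0.999 for Atp6v1c1, 1.01 for Atp6v1g1, 1.04 for Atp6v0a1, 1.31 for Atp6v0a2 and 1.10 for Atp6v0d1.

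Of 20 regulators known from intercalated cells and ionocytes, 9 were higher and 1 lower in caput clear cells than in the other caput cells (median log2 ratio 1.13), the rule gene Foxi1 among the 9. Foxi1 stood at 516 CPM in caput clear cells and 6.84 CPM in the other caput cells. Tfcp2l1, a transcription factor that acts with Foxi1 in the mouse collecting duct, stood at 248 CPM in caput clear cells and 12.9 CPM in the other caput cells (19.2-fold). Dmrt2, a transcription factor of kidney intercalated cells, stood at 109 CPM in caput clear cells and 2.704 CPM in the other caput cells (40.3-fold, 30.2 to 54.8). Kit, the receptor for stem cell factor, stood at 56.0 CPM in caput clear cells and 6.36 CPM in the other caput cells (8.81-fold), while its ligand Kitl stood at 9.12 CPM in caput clear cells and 82.4 CPM in the other caput cells. Kitl was seen in 87.7% of caput endothelial cells. Esrrg (13.2-fold) and Ppargc1a (8.0-fold), regulators of mitochondrial genes, passed the rule over all members but had under 100 UMIs in groups 1 and 2. The Notch ligand Jag2 was the 1 lower gene, at 5.13 CPM in caput clear cells and 29.9 CPM in the other caput cells.

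Of 28 channel and pump genes for chloride, potassium and sodium, 5 were higher and 1, the water channel gene Aqp1, was lower in caput clear cells than in the other caput cells (median log2 ratio 0.17), and in groups 1 and 2 3 were lower. Clcn5, a chloride-proton exchanger of endosomes, stood at 1259 CPM in caput clear cells and 28.7 CPM in the other caput cells (43.8-fold, 40.1 to 47.9). Bsnd, an accessory subunit of chloride channels, stood at 20.5 CPM in caput clear cells and 0.583 CPM in the other caput cells (35.2-fold), and had under 100 UMIs in groups 1 and 2. The potassium channels Kcnma1 (153 CPM in caput clear cells and 8.27 CPM in the other caput cells, 18.5-fold) and Kcnq1 (63.8 and 10.3 CPM, 6.17-fold) were also among the 5.

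Among 15 genes of bicarbonate, chloride and proton exchange, Slc26a3, a chloride-bicarbonate exchanger, was the 1 higher gene, at 207 CPM in caput clear cells and 8.01 CPM in the other caput cells (25.8-fold). Slc9a3r2, a scaffold for sodium-proton exchangers, was the 1 lower gene, and it was seen in 76.4% of caput endothelial cells. Of this list, 2 genes were higher and 3 lower in groups 1 and 2. Of 5 carbonic anhydrases with enough UMIs none was higher and Car4 was lower. Car2, the cytosolic enzyme that yields protons and bicarbonate from carbon dioxide, stood at 243.5 CPM in caput clear cells, 110 CPM in the other caput cells and 28.6 CPM in caput basal cells, a ratio of 2.21 to the other caput cells and 8.52 to basal cells.

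Genes with a symbol outside the rule with high ratios to the other caput cells included S100g, Mcf2, Vsig1, Galnt13, Svopl, Stap1, Slco1a5, Clcn5, Cpsf4l, Il13ra2 and Dmrt2, among the 107 genes seen in at least 25% of members. S100g stood at 148 CPM in caput clear cells and 2.49 CPM in the other caput cells (59.3-fold, 44.2 to 81.4). Mcf2, a guanine nucleotide exchange factor, stood at 169 CPM in caput clear cells and 2.92 CPM in the other caput cells (58.0-fold). Stap1, a signalling adaptor known from B cells, stood at 2410 CPM in caput clear cells and 49.6 CPM in the other caput cells (48.6-fold, 45.4 to 52.0) and was seen in 99.0% of members. In single members Stap1 had a median of 28.2 UMIs per 10000, a lowest value of 0 and a highest of 104. Slco1a5, an organic anion transporter, stood at 273 CPM in caput clear cells and 6.20 CPM in the other caput cells. Il13ra2, a decoy receptor for interleukin 13, stood at 241 CPM in caput clear cells and 5.83 CPM in the other caput cells, and Muc20, a membrane mucin, at 199.98 and 5.09 CPM.

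**Figure D3:**
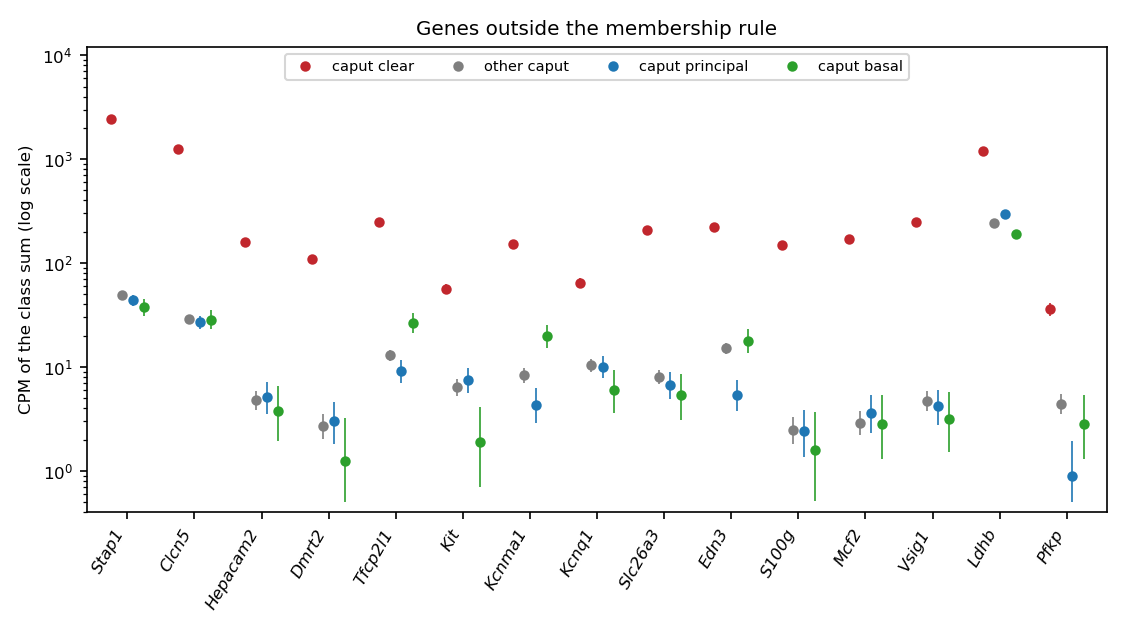
Genes outside the membership rule in caput clear cells (leftmost point of each gene), the other caput cells, caput principal and caput basal cells, as CPM of the class sum on a log axis with exact Poisson 95% intervals. For each of the 15 genes the caput clear cells stand above the other 3 classes, from 1207 CPM against 245 CPM in the other caput cells for Ldhb to 148 CPM against 2.49 CPM for S100g.

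Among energy genes, 2 of 16 glycolysis genes were higher and none lower in caput clear cells than in the other caput cells (median log2 ratio 0.72). Ldhb, the lactate dehydrogenase subunit of oxidative tissues, stood at 1207 CPM in caput clear cells and 245 CPM in the other caput cells (4.93-fold), and Pfkp, the platelet form of phosphofructokinase, at 36.1 and 4.40 CPM (8.20-fold). None of 42 nuclear respiratory chain genes and none of 23 genes of the TCA cycle passed the size rule, yet their median log2 ratios were 0.45 and 0.57. Respiratory chain genes summed to 17550 CPM in caput clear cells and 12940 CPM in the other caput cells. Ckmt1, a mitochondrial creatine kinase, stood at 19.4 CPM in caput clear cells and 0.530 CPM in the other caput cells (36.5-fold), and had under 100 UMIs in groups 1 and 2.

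Of the signalling genes, 2 of 27 growth factor genes were higher (Kit and Bmp8a, 8.98-fold) and 3 lower (Kitl, Fgfr3 and Igf1) in caput clear cells than in the other caput cells. The lower ones numbered 8 in groups 1 and 2, with Fgf10, Ros1, Bmp2, Bmp4 and Wnt5a added. Of 17 genes of hormone, kinin and peptide signalling 1 was higher and 6 were lower. The higher one was Avpr1a, a vasopressin receptor, at 28.3 CPM in caput clear cells and 1.75 CPM in the other caput cells (16.2-fold). The adenosine receptor gene Adora1 stood at 77.9 CPM in caput clear cells and 8.75 CPM in the other caput cells (8.90-fold). Edn3, the peptide endothelin 3, was outside the lists counted here. It stood at 222 CPM in caput clear cells and 15.1 CPM in the other caput cells (14.7-fold). Hsd11b2, which inactivates glucocorticoids, stood at 25.8 CPM in caput clear cells and 3.02 CPM in the other caput cells (8.55-fold) and had under 100 UMIs in groups 1 and 2.

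Of 27 genes of vesicle recycling and fusion 2 were higher (Rab11fip1, 4.10-fold, and Rab15, 4.58-fold) and 1 lower, with 3 higher and 3 lower in groups 1 and 2. Over all genes 1.78% were higher and 3.99% lower, and in groups 1 and 2 2.09% and 7.99%. Of 21 genes of actin and microvilli 1 was higher, Eps8, an actin-capping protein of microvilli (202 CPM in caput clear cells and 44.1 CPM in the other caput cells, 4.59-fold). None of 34 lysosome genes passed over all members, while Ctsh and Ctss, lysosomal proteases, were lower in groups 1 and 2. Of 23 genes of receptor-mediated endocytosis none was higher and 1 was lower. The endocytic adaptor Dab2 had a ratio of 3.17 over all members and passed the size rule in groups 1 and 2, at 4.44. Of 25 junction and polarity genes 2 were higher, Cldn6 (42.2-fold) and Marveld3 (5.26-fold), both tight junction proteins. The call of Marveld3 was lost in groups 1 and 2, where Cldn2, a claudin, was lower.

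Genes of stroma and vessels stood among the genes lower in caput clear cells than in the other caput cells, a class that holds those cells. Among the 12 genes seen in at least 25% of the other caput cells were Cxcl12 (5.84-fold lower), Sparcl1 (5.49-fold), Col4a1 (5.21-fold), Sparc (4.93-fold), Col1a2 (4.66-fold) and Vim (4.48-fold), a chemokine, matrix proteins and an intermediate filament protein. The calls of Ly6c1 (6.41-fold lower) and Ly6a (4.30-fold lower) over all members were lost in groups 1 and 2. In groups 1 and 2 212 of 10134 genes (2.09%) were higher and 810 (7.99%) lower than in the other caput cells, and 150 of the higher genes were shared with the 181 over all members (82.9% of the 181 and 70.8% of the 212). No call changed direction.

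Against caput principal cells, 371 of 6296 genes (5.89%) were higher and 1 (0.0159%) was lower in caput clear cells, while the median of all genes was 0.35 on the log2 scale. In groups 1 and 2, 408 of 5763 genes (7.08%) were higher and 361 (6.26%) lower. Stap1 stood at 2410 CPM in caput clear cells and 43.7 CPM in principal cells (55.2-fold), Atp6v1c2 at 140.5 and 3.14 CPM (44.8-fold) and Edn3 at 222 and 5.38 CPM (41.3-fold). Of the 26 secreted products of caput principal cells none was called lower over all members and all 26 were lower in groups 1 and 2. The list holds markers that defined the principal cells, Gpx5 and Lcn8 among them. Gpx5 stood at 6631 CPM in groups 1 and 2 and 49355 CPM in principal cells (7.44-fold lower), and at 20350 CPM over all members. Lcn8, a lipocalin, stood at 2343 CPM in groups 1 and 2 and 13579 CPM in principal cells (5.79-fold lower). Of 23 genes linked to tissue dissociation or immediate early response 8 were higher in caput clear cells than in principal cells, and in groups 1 and 2 13 were higher and 1 was lower. Hspa1a stood at 577 CPM in caput clear cells, 55.2 CPM in principal cells and 239 CPM in basal cells, and Klf4, a transcription factor, at 296, 34.8 and 236 CPM. Against basal cells none of 24 genes of that list was higher and 2 were lower, Cyr61 and Myc.

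Against caput basal cells, small cells at the base of the epithelium, 191 of 6003 genes (3.18%) were higher and 187 (3.12%) lower in caput clear cells, and in groups 1 and 2 193 of 4666 (4.14%) and 227 (4.86%). The higher genes included Dmrt2 (109 CPM in caput clear cells and 1.26 CPM in basal cells, 86.8-fold) and Scg5, a chaperone of prohormone processing (92.7 and 1.26 CPM, 73.8-fold). Krt5, which both rules used, stood at 15.95 CPM in caput clear cells and 689 CPM in basal cells. Genes outside the basal rule were lower too: Snai2, a transcription factor, was 25.4-fold lower, Spon1, a matrix protein, 27.3-fold, and the hemidesmosome collagen Col17a1 24.9-fold.

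Set against clear cells of the corpus, 189 of 5810 genes (3.25%) were higher and 78 (1.34%) lower in caput clear cells. Set against clear cells of the cauda, 231 of 5770 genes (4.0%) were higher and 69 (1.2%) lower. Region and library cannot be told apart, with 1 library each. In groups 1 and 2 the counts were 65 of 3880 (1.68%) higher and 112 (2.89%) lower against corpus clear cells, and 101 of 3693 (2.73%) and 84 (2.27%) against cauda clear cells. Only 59 of the 189 genes higher against the corpus (31.2%) and 90 of the 231 higher against the cauda (39.0%) were also called in groups 1 and 2. Principal cell products made up part of the difference: 17 of 26 were higher and 2 lower than in corpus clear cells, and 21 were higher and 2 lower than in cauda clear cells. In groups 1 and 2 these were 14 higher and 4 lower against the corpus and 18 higher and 3 lower against the cauda. Gpx5, for example, stood at 20350 CPM in caput, 11.5 CPM in corpus and 34.8 CPM in cauda clear cells. The 12 principal markers summed to 64334 CPM in caput clear cells (22907 CPM in groups 1 and 2), 2278 CPM in corpus and 1567 CPM in cauda clear cells, and 3 of the 12 were at 0 in the cauda. Most of the 12 are on the list of caput products. Low sums outside the caput therefore do not measure RNA from principal cells of the corpus or cauda. The 2 products lower in caput clear cells were Ces5a and Crisp1 against both regions. In the other direction, the 7 fibroblast markers summed to 786 CPM in caput, 1189 CPM in corpus and 6069 CPM in cauda clear cells. The 5 pan-immune markers summed to 279, 4976 and 8312 CPM. Of these sums Cd52, which epithelial cells also express, made up 223 CPM in caput, 4861 CPM in corpus and 8205 CPM in cauda clear cells. Ptprc, which the rule holds low, was above 0 in all 3. The part of these markers in the region differences was not tested, so the genes chosen by rank below are ones whose level in the clear cells of the higher region exceeded that in its other cells.

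The same rule chose the clear cells of all 3 regions, so levels of its genes, Foxi1 and Atp6v1g3 among them, are in part set by it. No V-ATPase gene passed against corpus or cauda clear cells, and none of 15 intercalated cell regulators did. The median log2 ratios of the V1 list were -0.15 and -0.53, against -0.01 and -0.06 over all genes. Over all genes 3.25% were higher and 1.34% lower against the corpus, and 4.0% and 1.2% against the cauda. At such shares lists this short would hold few calls or none. Foxi1 stood at 516 CPM in caput, 497 CPM in corpus and 571 CPM in cauda clear cells. Atp6v1g3 stood at 2605, 3362 and 2946 CPM in the same order. Stap1 stood at 2410 CPM in caput, 2795 CPM in corpus and 1400 CPM in cauda clear cells. Clcn5 stood at 1259, 1862 and 2645 CPM in that order, Edn3 at 222, 505 and 627 CPM, and Ckmt1 at 19.4, 56.8 and 92.9 CPM. None of these differences passed the size rule over all members. The ratios to corpus clear cells turned with the restriction to groups 1 and 2 for Atp6v1g3 (0.775 over all members and 1.18 in groups 1 and 2), Clcn5 (0.676 and 1.05), Stap1 (0.862 and 1.34) and Atp6v1a (0.838 and 1.23), so no direction is given for these. Ckmt1 lay below both other regions over all members and in groups 1 and 2, at 0.341 and 0.504 of the corpus level and 0.209 and 0.308 of the cauda level.

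Genes higher in caput than in corpus clear cells, and called in groups 1 and 2 too, included Clec2l, Wnt10a, Npnt, Gabrb1 and Col27a1. With sums thinned to the smaller total, 9 of 13 named calls against the corpus and 9 of 20 against the cauda were lost. The ratios of these 5 genes to corpus clear cells stayed within their intervals under that thinning. Their calls need not have held, since thinning also lowers the UMIs that the size rule requires. Clec2l, a C-type lectin-like gene, had 208 UMIs in caput clear cells and 0 in corpus and in cauda clear cells. With each count of 0 set to the floor of 3 UMIs, this was 28.8-fold higher than in corpus and 13.6-fold higher than in cauda clear cells. These folds depend on the floor and are not lower limits. It stood at 39.5 CPM in caput clear cells and 4.82 CPM in the other caput cells. Wnt10a, a secreted WNT ligand, stood at 30.0 CPM in caput clear cells and 1.83 CPM in corpus clear cells (16.4-fold, 6.27 to 60.9). It had 0 UMIs in cauda clear cells (10.3-fold at the same floor). Caput basal cells held Wnt10a at 30.1 CPM. Npnt, the matrix protein nephronectin, stood at 140 CPM in caput, 15.6 CPM in corpus and 26.1 CPM in cauda clear cells (8.98-fold, 6.37 to 13.1, and 5.35-fold) and was seen in 45.8% of caput clear cells. Its ratio to corpus clear cells was 13.7 in groups 1 and 2. Gabrb1, a GABA receptor subunit, stood at 45.0 CPM in caput and 5.95 CPM in corpus clear cells (7.56-fold) and at 0 UMIs in cauda clear cells. Pmepa1, Gabra4, Scx, Uchl1 and Slc15a2 were higher against the corpus over all members and were not called in groups 1 and 2. Against the cauda S100g stood at 148 CPM in caput and 13.5 CPM in cauda clear cells (10.9-fold), with 49.9 CPM in the corpus, Cldn6 was 10.8-fold higher, and Cyp1a1, a xenobiotic enzyme, stood at 73.5 CPM in caput and 7.74 CPM in cauda clear cells (9.50-fold).

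The genes lower in caput clear cells included several of the duct farther along. Against the corpus, 3 lower genes met the rule for genes chosen by rank, Tmem158 and Napsa among them. Npy, Defb40, Car4 and Cd52 did not meet it there, and the part of RNA from other corpus cells in their values was not tested. Cd52 was also not among the 10 chosen by rank against the cauda. Npy, neuropeptide Y, stood at 3.04 CPM in caput, 651 CPM in corpus and 504 CPM in cauda clear cells. Defb40, a beta-defensin, stood at 2.28 CPM in caput, 318 CPM in corpus and 865 CPM in cauda clear cells (380-fold lower than in the cauda). Car4, a membrane carbonic anhydrase, stood at 0.380 CPM in caput, 203 CPM in corpus and 0.968 CPM in cauda clear cells. Cd52, a surface glycopeptide of leukocytes and of epididymal epithelium, stood at 223 CPM in caput, 4861 CPM in corpus and 8205 CPM in cauda clear cells. Pate1, Cwh43 and Spint3 were lower against the cauda as well, at 0.950, 0.760 and 15.95 CPM in caput clear cells and 173, 163 and 402 CPM in cauda clear cells. Tmem158 stood at 14.8 CPM in caput, 89.7 CPM in corpus and 97.7 CPM in cauda clear cells (6.06-fold lower than in the corpus). Napsa, an aspartic protease, stood at 23.9 CPM in caput, 120 CPM in corpus and 234 CPM in cauda clear cells, and its call against the corpus was lost in groups 1 and 2.

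**Figure D4:**
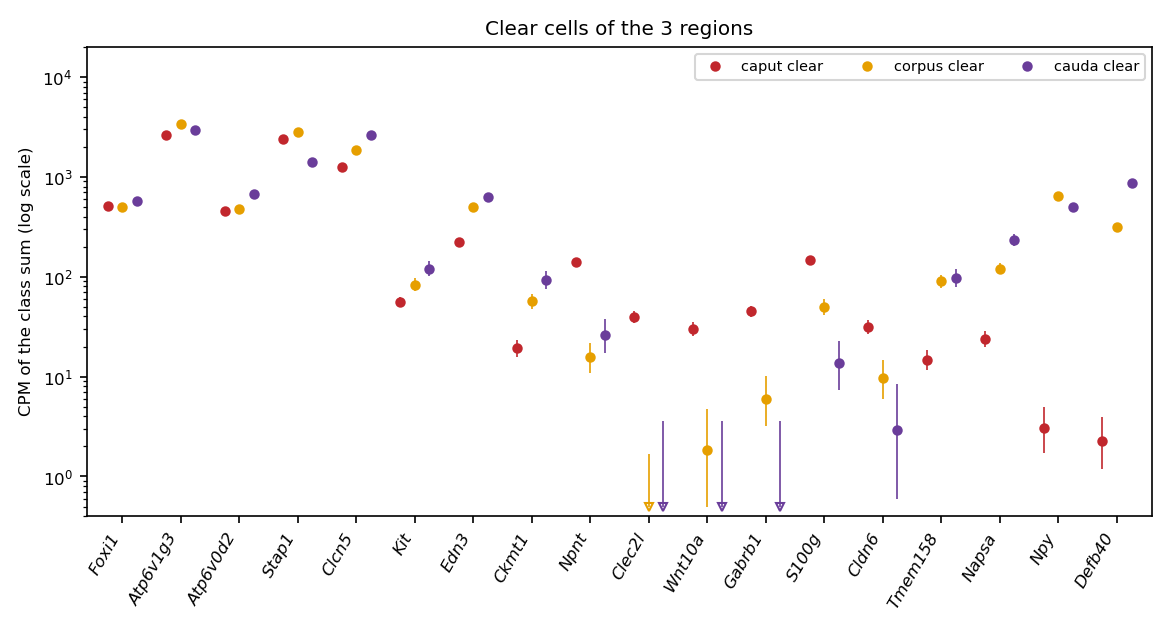
Genes in clear cells of the caput (leftmost point of each gene), corpus and cauda, as CPM of the class sum on a log axis with exact Poisson 95% intervals; triangles mark values under 0.5 CPM, drawn there. Foxi1 stands between 497 and 571 CPM in the 3 regions, Clec2l and Wnt10a are at or near 0 outside the caput, and Npy and Defb40 are near 0 in it.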

How the data were processed

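UMI counts of single cells from mouse caput, corpus and cauda epididymis were used as the authors deposited them, in 1 matrix of 24335 genes. STAR 2.7.3a, UMI-tools and the build GRCm38.p6 are named in the submitters' processing notes. The sources used here do not give how cells were called. Cells with under 200 genes were left out. The members, the lists (29) and the marker rules were chosen with earlier results of these data known.

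UMIs were summed by class and scaled to CPM with exact Poisson intervals, since 1 library per region and cells that are not replicates allow no test. Ratios had exact conditional binomial 95% intervals and shares Clopper-Pearson intervals, all for counting error only. A count of 0 was set to 3 per class. Principal cells held at least 6 of 12 markers and 300 such UMIs per 10000. They could hold at most 1 UMI in all of Krt5, Krt14, Trp63, Ptprc, Pecam1, Cdh5, Col1a1, Col3a1, Dcn, Myh11, Foxj1 and Ccdc153. Basal cells held at least 2 of Krt5, Krt14, Krt15 and Trp63, 5 such UMIs per 10000 and at most 1 UMI of Ptprc and Pecam1. Both classes held at most 1 rule gene UMI. Within the caput, the genes named were the 20 highest and 10 lowest ratios past the size rule, seen in at least 25% of cells of the higher class. Between regions they were the 10 in each direction (at least 10% of cells) whose level exceeded that of the other cells of that region. Members of the lists served as examples, and 1 gene that met the rule is not reported here. Genes given beyond this, such as Car4, Npy and Cd52 between regions and the leading genes of the 7 groups, were chosen after their values were seen. The work used Python 3.11.15, numpy 2.4.6, scipy 1.17.1, pandas 2.3.3, scanpy 1.11.5, igraph 0.11.9 and matplotlib 3.10.9. An alternative scaling took TMM factors from edgeR 4.0.16 in R 4.3.3. The size rule was also run on simulated class sums with known folds, and that outcome is not given here. Promoters are from RefSeq on GRCm38.p6, of which 12549 matched genes of the matrix by symbol. Alternatives changed the membership rule, scaling, low-count filter, depth, principal markers and the members entering.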

Additional observations from a re-analysis of the deposited data

How the results depend on the processing

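Of 186 values recomputed under alternatives, 142 stayed within 1.5 times or within their interval and 44 moved. Of 3129 values of named genes, 2592 stayed, 537 moved and no called gene was reversed (24 more gave no ratio because a class held no UMI). The share of caput cells that were members, 16.5%, was 18.9% with at least 2 rule genes, 11.3% with at least 4, 18.2% at 5 and 13.8% at 20 UMIs per 10000, and 13.97% with no UMI of Krt5, Ptprc or Pecam1.

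Requiring 20 instead of 100 UMIs gave 301 higher genes against the other caput cells, 747 higher and 14 lower against principal cells, 337 higher and 449 lower against basal cells, 345 higher and 200 lower against corpus clear cells, and 229 lower against cauda clear cells. Thinned sums gave 159 lower against the other caput cells, 0 against principal cells, and 115 and 99 higher against corpus and cauda clear cells. Using groups 1 and 2 (added after the data were seen) gave 810 lower against the other caput cells, 361 lower against principal cells, and 65 and 101 higher against corpus and cauda clear cells. Using clear cells with under 300 principal marker UMIs per 10000 (also added) gave 303 lower against principal cells and 70 and 107 higher against corpus and cauda clear cells. Between regions this left out caput members only, since no corpus or cauda clear cell reached 300. Setting members against all caput cells that are not members (added) gave 260 lower, with 6 of 33 named calls lost. Thinned sums lost 9 of 13 named calls against corpus and 9 of 20 against cauda clear cells. At 20 rule gene UMIs per 10000 the members had 62 genes lower than principal cells and 123 higher than corpus clear cells.

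The 1 gene lower than in principal cells became 2 with at least 4 rule genes, 0 at 5 UMIs per 10000, 4 with no exclusion UMI, 5 with TMM factors, 22 with means over cells (which have no interval), 29 without the 5% of members with most UMIs, 0 with principal markers of at least 1000 and 18 with at least 100 UMIs per 10000. Over the lists, the lower genes against the other caput cells numbered 31 with means over cells, 11 with thinned sums and 81 in groups 1 and 2. Against principal cells they numbered 2 with TMM factors, 2 with means over cells and 54 in groups 1 and 2, and against corpus clear cells groups 1 and 2 had 18 higher and 13 lower. Resolution 1.0 gave 13 groups. The cause of these shifts was not tested, apart from thresholds that admit more genes. No paired analysis was possible because each region is 1 library and no result comes from a test. Depth limits genes with few UMIs, above all in the 111 cauda clear cells.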

Other observations

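Iapp, the islet amyloid peptide of pancreatic beta cells, was chosen after its values were seen. It had 671 UMIs in caput clear cells, in 59 of 813 cells (7.26%). The 4 cells with most Iapp held 148, 111, 111 and 98 UMIs and 69.7% of the total, the next cell held 46, and 39 of the 59 cells had 1 or 2 UMIs. These 4 cells had 5956, 5930, 4940 and 4655 UMIs in all, 63.8, 45.5, 81.0 and 122 rule gene UMIs per 10000 and 30.2, 189, 202 and 103 principal marker UMIs per 10000, and belonged to groups 0, 1, 1 and 2. Caput cells that are not members held 289 Iapp UMIs in 106 of 4126 cells, and the 3 with most held 111, 32 and 17 UMIs. These 3 cells had 47353, 47074 and 17125 UMIs in all. Their rule genes stood at 7.60, 8.92 and 7.59 UMIs per 10000, below the level of 10 set for members but not absent. The other caput cells, a subset of the cells that are not members, held 42 UMIs in 41 cells, with at most 2 in a cell. Corpus clear cells held 9 UMIs and cauda clear cells none in 111 cells. Among 5747 genes with at least 100 UMIs in caput clear cells, Iapp had the fourth highest share in its 4 top cells, after Wfdc18, Spint4 and Wfdc13.

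At least 5 of 24 cell cycle genes were detected in 201 caput clear cells (24.7%), in 83 of 556 cells of groups 1 and 2 (14.9%) and 118 of 257 members outside them (45.9%). The share was 32.7% in the other caput cells, 20.9% in principal cells, 47.3% in basal cells, 19.6% in corpus clear cells and 27.9% in cauda clear cells. The genes summed to 1167 CPM in caput clear cells, and to similar levels in groups 1 and 2 (1138 CPM) and in the members outside them (1191 CPM). They summed to 1522 CPM in the other caput cells, 1221 CPM in principal cells, 1646 CPM in basal cells, 1468 CPM in corpus clear cells and 1163 CPM in cauda clear cells. Median depth was 3765.5 UMIs in groups 1 and 2 and 8349 in the members outside them, and its part was not tested. Mki67, a proliferation marker, stood at 16.5 CPM over all members, 2.95 CPM in groups 1 and 2 and 46.7 CPM in the other caput cells.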
